A study of Mus musculus with 6 samples.

Results

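The enzymes of glycolysis, the pyruvate dehydrogenase complex and the citric acid cycle were compared between RNA of tagged ribosomes (IP) and RNA of the thalamic sample (Input). The group was a list of 34 enzyme genes plus Pkm, matched by name to the rows of the 6 count tables. All 35 were found among 32531 gene rows, and all 35 passed the filter on low counts, which left 16496 genes for testing. The groups were 3 IP and 3 Input libraries from the thalamus of adult control mice of the line Slc17a6-EGFP/Rpl10a (JX883), which had no treatment. All 6 libraries thus came from mice with the EGFP-tagged ribosomal protein Rpl10a, in a line that takes its name from Slc17a6, which encodes VGLUT2, a vesicular glutamate transporter. In translating ribosome affinity purification (TRAP), tagged ribosomes are pulled from homogenised tissue with antibodies to EGFP, and the RNA they carry is sequenced. Since no label ties a replicate to an animal of its own, p-values reflect the scatter among these 6 libraries, and some of it may be technical.

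Glycolysis splits glucose into pyruvate in the cytosol, and the pyruvate dehydrogenase complex and the citric acid cycle burn it in mitochondria. Several steps are carried out by isoenzymes from separate genes that brain cells use unequally. Enolase 2 (Eno2) is the classical neuron-specific enolase and enolase 1 (Eno1) the form of glia and most other tissues, while aldolase C (Aldoc) is abundant in astrocytes, although Purkinje cells of the cerebellum hold it too. Lactate dehydrogenase B (Ldhb) subunits are usually assigned to neurons and lactate dehydrogenase A (Ldha) subunits to astrocytes, a division known to be less strict.

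The libraries held between 44081149 and 54421395 gene reads. Replicates 1, 2 and 3 were run on lanes 3, 8 and 4, so an effect of lane and one of replicate cannot be told apart. Reads of 4 Y-linked genes numbered 2 or fewer in both replicate 1 libraries and between 1447 and 2880 in the other 4, so replicate 1 came from other animals than replicates 2 and 3. Slc17a6 itself was higher in IP in 3 of 3 replicate pairs, though its groups overlapped, with a log2 fold change of 1.27 ± 0.68 (SE). It missed the threshold of the edgeR quasi-likelihood test (adjusted p = 0.206) and passed with the replicate number as a block (edgeR adjusted p = 0.000246). The defining markers of other cells had lower summed levels in IP, in TMM-scaled CPM (reads of a gene relative to the library's total after TMM scaling). For 10 astrocyte markers the sum lay between 324 and 817 CPM in IP and between 1486 and 3147 CPM in Input. Most of it was Slc1a2, at 288 to 770 CPM in IP and 1073 to 2323 CPM in Input with a log2 fold change of -1.62, while the median of the 10 was -4.01. For 10 oligodendrocyte markers it lay between 180 and 323 CPM in IP and between 3939 and 5629 CPM in Input, for 8 microglia markers between 5.13 and 9.17 CPM in IP and between 51.6 and 85.9 CPM in Input, and for 6 endothelial markers between 0.978 and 1.88 CPM in IP and between 11.6 and 14.0 CPM in Input. C1qa and Tmem119 of microglia and Cldn5 and Ly6c1 of endothelium had 0 reads in at least 1 IP library. The 3 GABAergic neuron markers summed to between 51.6 and 128 CPM in IP and between 672 and 961 CPM in Input. The 5 markers of thalamic glutamatergic neurons summed to between 5166 and 9331 CPM in IP and between 1497 and 4951 CPM in Input. Most of that was Slc17a6 and Tcf7l2. Slc17a6 had 6489, 2193 and 2200 CPM in IP and 3153, 875 and 477 CPM in Input. Lef1 and Prkcd had log2 fold changes of 0.32 and 0.14 with overlapping groups, against 1.15 for Tcf7l2 and 1.91 for Calb2. The 7 pan-neuronal markers summed to between 17790 and 24968 CPM in IP and between 14079 and 16075 CPM in Input. Of this, Snap25 gave 13353 to 21348 CPM in IP and 11219 to 13840 CPM in Input. In bulk RNA such as this, how many cells of a type gave RNA to a library and how much each gave cannot be told apart.

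Because the isoenzyme comparison rests on reads that could come from either gene of a pair, the coding sequences of each pair were set side by side. They come from the principal transcripts of GENCODE M21 on GRCm38, the assembly of mm10. Over aligned codons the identity of bases was 75.1% for Eno2 and Eno1, 75.7% for Aldoa and Aldoc, and 71.5% for Ldhb and Ldha. The identity of residues was 82.9%, 82.6% and 75.9% for the same 3 pairs. The 60 coding bases where each pair is most alike are printed 5′ to 3′, with capitals at the bases that differ.
Eno2, chr6:124766262-124766321, minus strand: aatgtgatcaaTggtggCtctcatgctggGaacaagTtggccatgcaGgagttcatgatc
Eno1, chr4:150245121-150245180, plus strand: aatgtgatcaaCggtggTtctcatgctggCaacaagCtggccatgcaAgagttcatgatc
Aldoa, chr7:126796298-126796651, minus strand, across an intron: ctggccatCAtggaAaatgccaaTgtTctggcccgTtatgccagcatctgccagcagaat
Aldoc, chr11:78325153-78325331, plus strand, across an intron: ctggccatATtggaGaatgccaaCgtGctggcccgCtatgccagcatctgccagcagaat
Ldhb, chr6:142498560-142498619, minus strand: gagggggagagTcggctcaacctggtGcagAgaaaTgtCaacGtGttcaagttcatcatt
Ldha, chr7:46850237-46850296, plus strand: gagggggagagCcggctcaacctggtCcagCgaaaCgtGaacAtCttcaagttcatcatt
Even in these stretches 5 of 60 bases differed for the enolases, 6 for the aldolases and 7 for the lactate dehydrogenases. The genes of a pair shared 0 stretches of 50 bases in their transcripts.

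Sequence shared with other genes was a separate matter. Alignments at more than 1 place made up 40.8% of records in IP and 25.8% in Input on average and were not counted to genes. For each enzyme, the share of 50-base stretches of its principal transcript that also occur in the transcript of another annotated gene was computed, since the read length is not given in the sources used here. It was 0% for 18 enzymes and at least 10% for 13. The largest shares were 82.5% for Gapdh, 72.2% for Eno1 and 68.0% for Pgk1, mostly through processed copies annotated as pseudogenes. For Gapdh the sharing genes numbered 222, of which 213 were pseudogenes, and for Eno1 they numbered 9, of which 8 were pseudogenes. The most widely shared 50 coding bases of both genes show this.
Gapdh, chr6:125162898-125162947, minus strand, in 84 other genes: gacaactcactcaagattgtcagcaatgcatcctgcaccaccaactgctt
Eno1, chr4:150245115-150245164, plus strand, in 5 other genes: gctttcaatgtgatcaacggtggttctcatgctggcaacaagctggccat
Over the coding sequence, 100% of the 950 stretches of Gapdh and 83.3% of the 1253 stretches of Eno1 were found elsewhere. The counted levels of both were low, at 6.77 ± 3.01 CPM per kb of transcript in IP and 8.37 ± 1.94 CPM per kb in Input for Gapdh, and at 0.343 ± 0.0608 CPM per kb in IP and 1.18 ± 0.431 CPM per kb in Input for Eno1 (SD, n = 3). Levels of the 13 enzymes at or above 10% are therefore uncertain, and how many of their reads went uncounted in IP and in Input, and whether this share differed between them, was not tested.

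**Figure D1:**
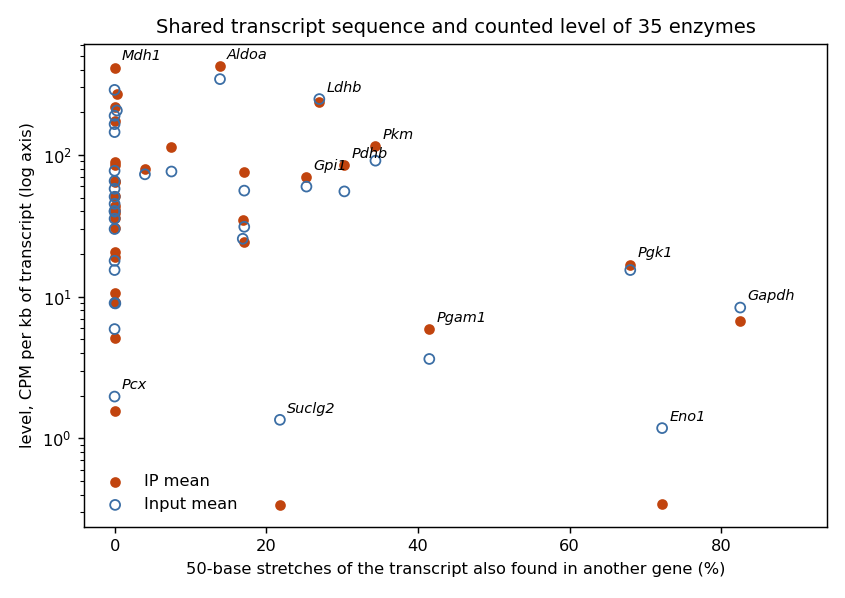
The mean level of each of the 35 enzymes in CPM per kb of transcript (log axis) is plotted against the percentage of its 50-base stretches found in another gene, with filled points for IP and open points for Input. Gapdh at 82.5% and Eno1 at 72.2% sit low at the right, while Aldoa, the highest in both groups, is at 13.9%.

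Few of the enzymes passed the test of IP against Input. Tpi1, Dlat and Mdh1 were higher in IP and Aldoc and Suclg2 lower, by the edgeR quasi-likelihood test with an adjusted p under 0.05 over all tested genes. The 3 higher enzymes were 8.57% of the 35, against 9.60% of tested genes, and the 2 lower ones 5.71%, against 15.6%. With the replicate number as a block, 7 of the 35 were higher, against 15.9% of tested genes, and 2 (5.71%) lower, against 19.2%. The block added Eno2, Pdha1, Pdhb and Idh3a to the higher ones. None of Tpi1, Dlat and Mdh1 passed under library-total scaling, under upper-quartile scaling or with no filter on low counts. DESeq2 called 4 higher and 3 lower, against 12.7% and 19.9% of tested genes, and limma-voom 3 higher and 2 lower, against 10.6% and 16.5%. Every IP value lay above every Input value for 8 enzymes, which holds for 19.9% of tested genes, and below for 4, which holds for 25.0%. The 12 without overlap were 34.3% of the 35, against 44.9% of tested genes. The median log2 fold change over the 35 was 0.15, with 25 positive and 10 negative values, and over all tested genes it was -0.04. Within replicate pairs 1, 2 and 3 the median log2 ratio of the enzymes was -0.04, 0.23 and 0.37.

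**Figure D2:**
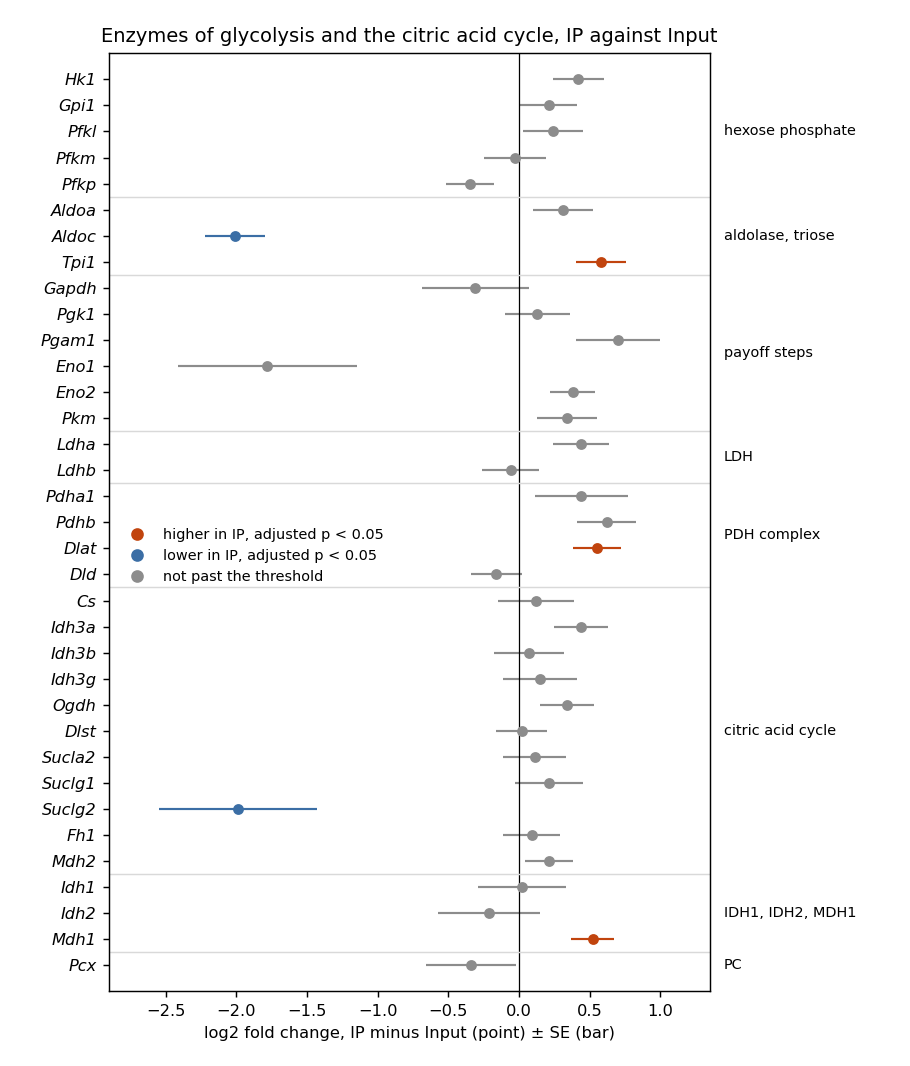
Points give the log2 fold change (IP minus Input) for each of the 35 enzymes and bars its SE, from the edgeR fit without the replicate block, in the order of the pathway. Most points sit between 0 and 0.70, Aldoc at -2.01 and Suclg2 at -1.99 passed the test as lower, and Eno1 at -1.78 did not pass.

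Input replicate 3 stood apart from the other Input libraries, with the lowest Input value for 27 of the 35 enzymes and a median deviation of -0.24 (log2) from its group mean. Without it the median of the enzymes was 0.07, Dlat was called higher (edgeR adjusted p = 0.0440) and Aldoc and Eno1 lower (edgeR adjusted p = 0.00106 and 0.0333). In that fit 9.48% of tested genes were higher and 15.0% lower. The 35 enzymes together made up 6119, 6583 and 6031 CPM in IP replicates 1 to 3, against 5826, 5627 and 4930 CPM in Input. These TMM-scaled IP sums were all above the Input sums, and they varied less among themselves. Without TMM scaling, the enzymes were 0.554, 0.672 and 0.618% of gene reads in IP and 0.566, 0.61 and 0.493% in Input. Those shares overlapped between the groups.

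**Figure D3:**
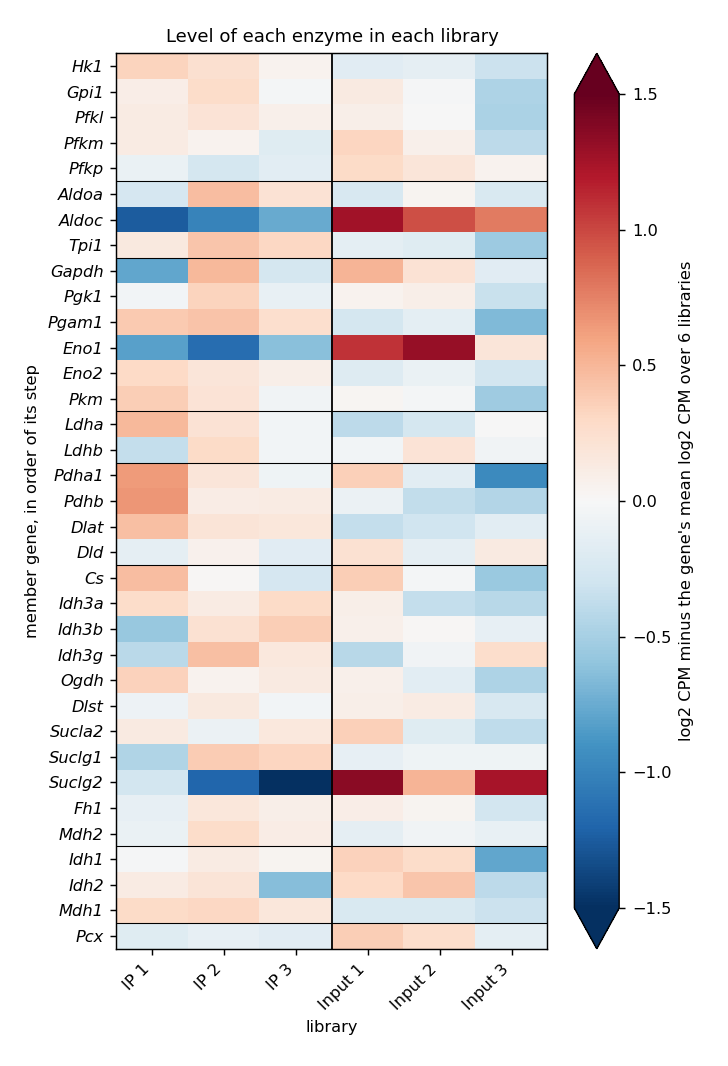
Each cell shows the log2 CPM of an enzyme in a library minus its mean over the 6 libraries, with IP libraries left and Input libraries right of the line. Aldoc, Eno1 and Suclg2 are low in all 3 IP columns, and the column of Input replicate 3 holds the lowest Input value for 27 of 35 enzymes.

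The first steps of glycolysis trap and phosphorylate the sugar, and none of their 5 enzymes passed the edgeR test in either direction, nor DESeq2 or limma-voom. At an unadjusted p under 0.05, a level passed upward by 16.1% and downward by 22.0% of tested genes, there was 1, Hk1, the main brain hexokinase, with 86.0, 80.5 and 71.1 CPM in IP and 60.5, 62.3 and 54.8 CPM in Input. Its groups did not overlap, and the log2 fold change was 0.42 ± 0.18 (SE, edgeR adjusted p = 0.115). Gpi1, glucose-6-phosphate isomerase and the highest of the 5 in CPM, had 197, 223 and 180 CPM in IP and 202, 182 and 134 CPM in Input. Its groups overlapped, with a log2 fold change of 0.21 ± 0.20.

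The 3 phosphofructokinases, named for liver (Pfkl), muscle (Pfkm) and platelet (Pfkp), catalyse the committed step. Pfkl and Pfkm had log2 fold changes of 0.24 ± 0.21 and -0.03 ± 0.22 (SE), and the groups of both overlapped. Pfkp lay lower in all 3 IP libraries, at 106, 95.1 and 102 CPM against 139, 129 and 118 CPM in Input, with a log2 fold change of -0.35 ± 0.17 (edgeR adjusted p = 0.155). Per kb of transcript, Pfkm made up 52.6 ± 2.56% of the family in IP and 49.5 ± 3.60% in Input, Pfkp 33.0 ± 2.42% in IP and 39.4 ± 3.94% in Input, and Pfkl 14.3 ± 0.817% in IP and 11.2 ± 0.539% in Input (SD, n = 3). Per kb, Pfkm was thus the highest of the 3 in every library, at 45.5% against 43.8% for Pfkp in Input replicate 3. In CPM, without regard to length, Pfkp lay above Pfkm in IP replicate 3 and in Input replicates 2 and 3. Of the stretches of Pfkp, 17.1% were shared, so its level is uncertain. The within-library log2 ratio of Pfkm over Pfkp, a pair chosen after its values were seen, was 0.34 higher in IP, and its groups overlapped (exact permutation test over libraries, two-sided, p = 0.2).

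Aldolase and triose phosphate isomerase split the sugar into interconvertible trioses. Aldoc had 84.4, 100 and 118 CPM in IP, against 479, 392 and 342 CPM in Input. All 3 IP libraries lay far below all 3 Input libraries, and the log2 fold change was -2.01 ± 0.21 (SE, edgeR adjusted p = 0.00053). The call held in all 18 alternative fits, with values between -2.23 and -1.75. In rank of level per kb Aldoc was number 21 of the 35 enzymes in IP and number 7 in Input, and it shared no 50-base stretch with another gene. The astrocyte markers fell with it, 9 of 10 passing the test as lower with a median of -4.01 for the list, and their part in the Aldoc result was not tested.

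Aldoa, the muscle-type aldolase that neurons also use, had 478, 785 and 665 CPM in IP and 483, 585 and 486 CPM in Input. IP replicates 2 and 3 were the highest of the 6, but IP replicate 1 was the lowest, and the log2 fold change of 0.31 ± 0.21 missed the threshold (edgeR adjusted p = 0.319). By group mean, Aldoa was the highest of the 35 enzymes per kb in both groups. It had 425 ± 102 CPM per kb in IP and 343 ± 38.3 CPM per kb in Input (SD, n = 3). Mdh1 had 413 ± 21.2 CPM per kb in IP, a difference smaller than the SD of Aldoa. Of the stretches of Aldoa, 13.9% were shared. Tpi1, triose phosphate isomerase, had 165, 199 and 185 CPM in IP and 135, 132 and 102 CPM in Input. Its groups did not overlap, and it rose by 0.58 ± 0.18 on the log2 scale (edgeR adjusted p = 0.0494). The call was lost whichever of the 6 libraries was left out, with edgeR adjusted p-values between 0.0517 and 0.158.

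The later steps of glycolysis regain energy as ATP. By edgeR none of the 6 enzymes passed, while at an unadjusted p under 0.05 there were 2 higher and 1 lower, against 16.1% and 22.0% of tested genes, DESeq2 called 1 lower and limma-voom none. Gapdh, Pgk1 and Pkm, the genes of glyceraldehyde-3-phosphate dehydrogenase, phosphoglycerate kinase and pyruvate kinase, had log2 fold changes of -0.31 ± 0.38, 0.13 ± 0.23 and 0.34 ± 0.21 (SE), all with overlapping groups. Pgam1, phosphoglycerate mutase, averaged 10.5 ± 0.694 CPM (SD) over the 3 IP libraries and 6.44 ± 1.17 CPM (SD) over the 3 Input libraries, without overlap. Its log2 fold change of 0.70 ± 0.30 missed the threshold (edgeR adjusted p = 0.125), and 41.5% of its stretches were shared.

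Eno2 had more counted reads than Eno1 in every library, with the limit that most stretches of Eno1 occur elsewhere and its level is uncertain. Eno2 had 806, 746 and 698 CPM in IP and 573, 611 and 542 CPM in Input. The groups did not overlap, and the log2 fold change of 0.38 ± 0.16 did not pass without the block (edgeR adjusted p = 0.105) and passed with it (edgeR adjusted p = 0.0360). Eno1 had 35, 30 and 44 reads in IP and 122, 151 and 62 reads in Input, or 0.710, 0.564 and 0.809 CPM in IP and 2.65, 3.09 and 1.41 CPM in Input. All IP values lay below all Input values, with a log2 fold change of -1.78 ± 0.63 (edgeR adjusted p = 0.0696). It passed in 4 of 18 alternatives, among them DESeq2 (adjusted p = 0.0145) and the fit without Input replicate 3. Eno1b, another row with an enolase 1 name, had between 12 and 22 reads in IP and between 16 and 25 reads in Input, and did not pass (log2 fold change -0.64 ± 0.81).

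Lactate dehydrogenase interconverts pyruvate and lactate as a tetramer of A and B subunits. Ldha, the glial isoenzyme of the pair, had 160, 133 and 111 CPM in IP and 87.4, 95.3 and 114 CPM in Input. The groups overlapped through replicate 3, and the log2 fold change of 0.44 ± 0.20 (SE) was positive and missed the threshold (edgeR adjusted p = 0.141). Ldhb had 245, 382 and 306 CPM in IP and 306, 362 and 302 CPM in Input, with a log2 fold change of -0.06 ± 0.20 (edgeR adjusted p = 0.869). Its groups overlapped, and its sign turned with the libraries used. Neither gene passed by DESeq2, by limma-voom or at an unadjusted p under 0.05. Of the stretches of Ldha 17.1% were shared with other genes, and of those of Ldhb 27.0%, so the levels of both are uncertain.

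**Figure D4:**
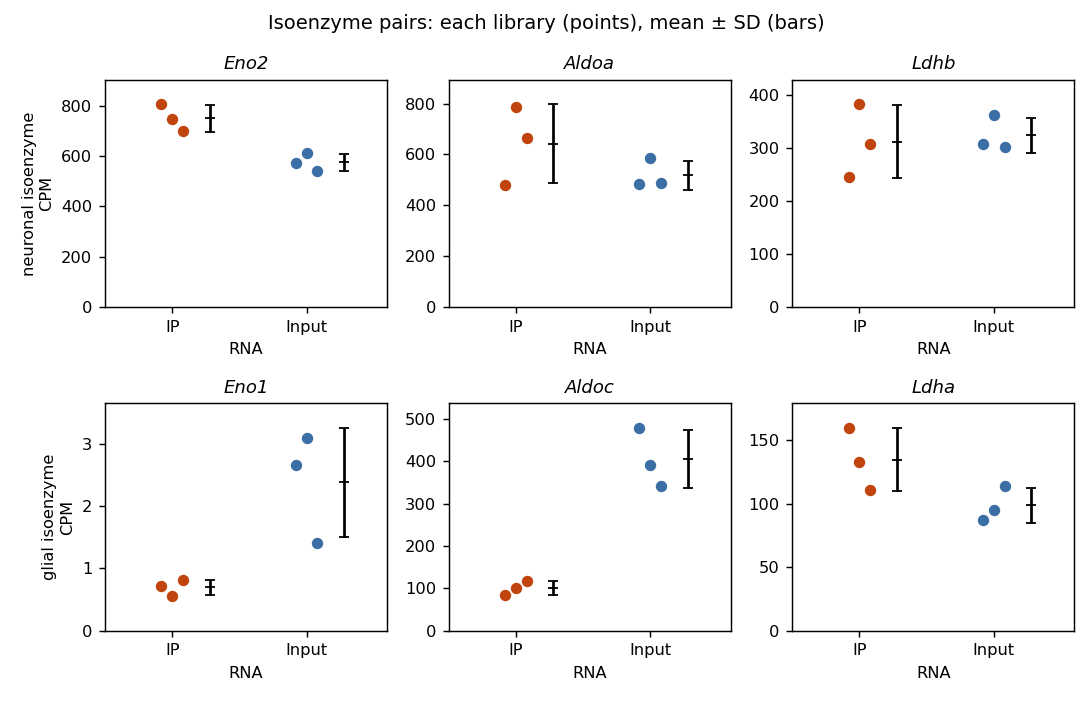
CPM of the 3 neuronal isoenzymes (top) and the 3 glial isoenzymes (bottom) is shown for each IP and Input library as points, with the mean and SD (n = 3) beside them and axes starting at 0. Aldoc and Eno1 are lower in all 3 IP libraries, Eno2 is higher in all 3, and Aldoa, Ldhb and Ldha overlap.

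The mean log2 ratio of neuronal over glial isoenzyme was higher in IP for the enolases and aldolases and lower in IP for the lactate dehydrogenases, in each case short of the test’s threshold. The log2 ratio of Eno2 over Eno1 reads was 10.15, 10.37 and 9.75 in IP and 7.75, 7.63 and 8.59 in Input, a difference of 2.10 of the means. For Aldoa over Aldoc it was 2.50, 2.97 and 2.50 in IP and 0.01, 0.58 and 0.51 in Input, a difference of 2.29. In both pairs every IP library lay above every Input library, and the two-sided exact permutation test over libraries gave p = 0.1, the smallest that 3 against 3 allows. For Ldhb over Ldha the log2 ratio was 0.61, 1.53 and 1.46 in IP and 1.81, 1.93 and 1.40 in Input, a difference of -0.51 with overlapping groups (exact permutation p = 0.3). Adjusted over the 3 ratios by Benjamini-Hochberg, these exact p-values were 0.15, 0.15 and 0.3. No ratio could pass 0.05 with these numbers of libraries. No scaling factor enters a ratio within a library.

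Per kb of transcript, Aldoc made up 7.98 ± 1.32% of the aldolase pair in IP and 29.8 ± 4.53% in Input (SD, n = 3). Ldha made up 24.7 ± 6.79% of its pair in IP and 18.5 ± 2.94% in Input, with the levels of both genes uncertain through shared stretches. Eno1 made up 0.128 ± 0.0283% of its pair in IP and 0.561 ± 0.179% in Input, a share that leaves out any Eno1 reads aligned to more than 1 place.

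**Figure D5:**
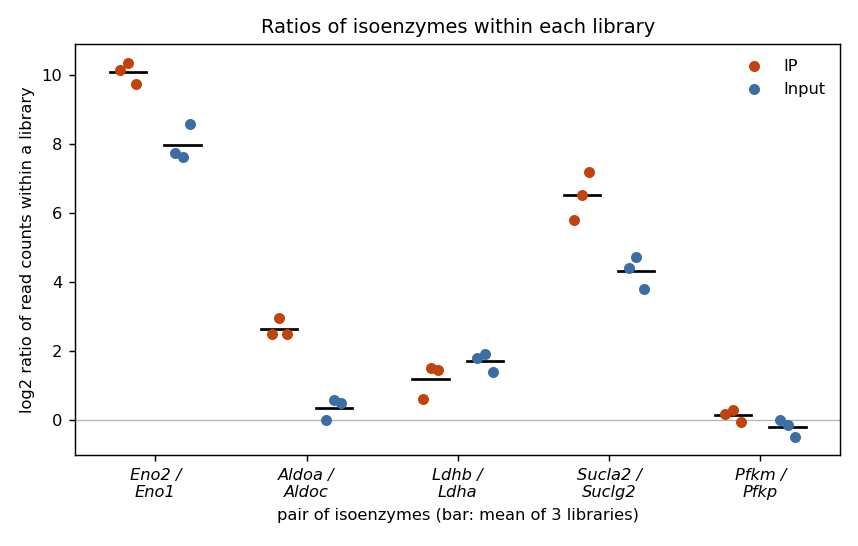
Log2 ratios of the read counts of paired isoenzymes are plotted for each library, IP left and Input right in each pair, with bars at the means of 3 libraries. The ratios of Eno2 over Eno1, Aldoa over Aldoc and Sucla2 over Suclg2 do not overlap between the groups, and those of Ldhb over Ldha and Pfkm over Pfkp do.

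The pyruvate dehydrogenase complex turns pyruvate into acetyl-CoA with 3 kinds of catalytic subunit, E1 (Pdha1 and Pdhb), E2 (Dlat) and E3 (Dld). Dlat, the core of the complex, had 300, 251 and 248 CPM in IP and 172, 179 and 197 CPM in Input. The groups did not overlap, and it rose by 0.55 ± 0.17 on the log2 scale (SE, edgeR adjusted p = 0.0432). The call held without Input replicate 3 (edgeR adjusted p = 0.0440) and was lost without any other single library, with edgeR adjusted p-values between 0.0840 and 0.139. Both E1 genes were higher in 3 of 3 replicate pairs. Pdhb had 163, 111 and 112 CPM in IP and 96.5, 79.2 and 75.5 CPM in Input, without overlap, and its log2 fold change of 0.62 ± 0.21 missed the threshold (edgeR adjusted p = 0.0659) but passed with the block (edgeR adjusted p = 0.0102). Pdha1 had 126, 92.2 and 77.9 CPM in IP and 104, 72.6 and 41.8 CPM in Input. Its groups overlapped and both groups were highest in replicate 1 and lowest in replicate 3, and it passed with the block only (log2 fold change 0.51 ± 0.17, edgeR adjusted p = 0.0433). Without the block the log2 fold change of Pdha1 was 0.44 ± 0.33, and it was 0.17 without Input replicate 3. Of the stretches of Pdhb 30.3% were shared with other genes, and of those of Pdha1 16.9%, so the levels of both are uncertain.

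Dld, the E3 subunit shared with other dehydrogenase complexes, had a log2 fold change of -0.16 ± 0.18 and overlapping groups. The median of these 4 subunits was 0.49 without the block, against -0.04 for all tested genes. Pdhx, also of this complex but outside the 35 enzymes, had a log2 fold change of 0.17 ± 0.22 and overlapping groups. It was named after its value was seen. Pdha1, Idh3g and Pgk1 lie on the X chromosome, and replicate 1 differed from the others in Y-linked reads. Unlike Pdha1, Idh3g was lowest in replicate 1 of both groups, and Pgk1 was highest in replicate 2 of both. Whether these levels are tied to the chromosome was not tested.

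Of the 11 citric acid cycle enzymes, 10 had a positive log2 fold change, between 0.02 and 0.44, where 48.1% of tested genes were positive. Without Input replicate 3, Cs, Dlst, Sucla2 and Fh1 turned negative (-0.08, -0.07, -0.02 and -0.01), and the other positive ones kept their sign. Suclg2 was the one enzyme of the 11 to pass the edgeR test, as lower (9.09%, against 15.6% of tested genes). No enzyme of the cycle was called higher by DESeq2 or limma-voom either, and 1 was at an unadjusted p under 0.05, Idh3a. Idh3a, the catalytic subunit of the NAD-linked isocitrate dehydrogenase, had 220, 199 and 223 CPM in IP and 193, 142 and 137 CPM in Input. Its groups did not overlap, with a log2 fold change of 0.44 ± 0.19 (SE) that missed the threshold (edgeR adjusted p = 0.121) and passed with the block (edgeR adjusted p = 0.0356) and without Input replicate 1 (edgeR adjusted p = 0.0402). The other subunits of that enzyme, Idh3b and Idh3g, had log2 fold changes of 0.07 ± 0.25 and 0.15 ± 0.26, and the lowest IP value of both was that of replicate 1.

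Mdh2, mitochondrial malate dehydrogenase, was by group mean the highest of the 11 in CPM. It had 275, 357 and 319 CPM in IP and 268, 283 and 273 CPM in Input. The lowest IP value lay inside the Input range, and the log2 fold change was 0.21 ± 0.17 (edgeR adjusted p = 0.412). Citrate synthase (Cs), Dlst and fumarase (Fh1) had values of 0.12 ± 0.27, 0.02 ± 0.18 and 0.09 ± 0.20, and Ogdh, the E1 subunit of the oxoglutarate dehydrogenase complex in which Dlst is E2, had 0.34 ± 0.19. The groups of all 4 overlapped.

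Succinyl-CoA synthetase makes ATP or GTP depending on which beta subunit joins its alpha subunit Suclg1. Suclg2, the GTP-specific beta subunit, had 88, 50 and 38 reads in IP and 252, 149 and 223 reads in Input, or 1.78, 0.940 and 0.699 CPM in IP and 5.48, 3.05 and 5.06 CPM in Input. All IP libraries lay below all Input libraries, and it fell by 1.99 on the log2 scale (SE 0.56, edgeR adjusted p = 0.0325). The call held without IP replicate 1 (edgeR adjusted p = 0.0301) and was lost without any other single library, with edgeR adjusted p-values between 0.0505 and 0.0994. Sucla2, the ATP-specific beta subunit, had 101, 86.5 and 103 CPM in IP and 118, 81.1 and 70.8 CPM in Input, with overlapping groups and a log2 fold change of 0.11 ± 0.22. The log2 ratio of Sucla2 over Suclg2, a pair chosen after its values were seen, was 5.82, 6.52 and 7.21 in IP and 4.42, 4.73 and 3.81 in Input, a difference of 2.20 without overlap (exact permutation p = 0.1, the smallest possible). Per kb, Suclg2 was 0.772 ± 0.359% of the 2 beta subunits in IP and 3.31 ± 1.08% in Input (SD, n = 3). Suclg1 had a log2 fold change of 0.21 ± 0.24. Of the stretches of Suclg2, 21.8% were shared with 1 pseudogene. As for Aldoc, the part of the glial and endothelial markers in the Suclg2 result was not tested.

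Mdh1 is the cytosolic malate dehydrogenase of the malate-aspartate shuttle. By group mean it was the highest of the 35 per kb after Aldoa. Its level was 413 ± 21.2 CPM per kb in IP and 288 ± 11.3 CPM per kb in Input (SD, n = 3). It had 895, 910 and 826 CPM in IP and 626, 623 and 583 CPM in Input. The groups lay well apart and the replicate pairs gave log2 ratios of 0.52, 0.55 and 0.50. Mdh1 rose by 0.52 ± 0.15 on the log2 scale (SE, edgeR adjusted p = 0.0343), a call that held without Input replicate 1 (edgeR adjusted p = 0.0486) and was lost without any other single library, with edgeR adjusted p-values between 0.0578 and 0.115. The NADP-linked isocitrate dehydrogenases Idh1 (cytosolic) and Idh2 (mitochondrial) had log2 fold changes of 0.02 ± 0.31 and -0.21 ± 0.36 and overlapping groups.

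Pcx, pyruvate carboxylase, refills the cycle with oxaloacetate and is held to be an astrocyte enzyme in brain. It had 6.23, 6.49 and 6.27 CPM in IP and 9.11, 8.52 and 6.40 CPM in Input. Every IP value but the highest lay below the Input range, and the log2 fold change of -0.34 ± 0.32 missed the threshold (edgeR adjusted p = 0.479). This change was small beside the -2.01 of Aldoc, and the difference between the 2 genes was not tested.

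The pathway beyond the 35 enzymes was read from 73 further genes of carbohydrate metabolism, of which 65 were tested. By edgeR 5 (7.69%) were higher and 6 (9.23%) lower, against 9.60% and 15.6% of tested genes. With the block there were 9 (13.8%) higher and 8 (12.3%) lower, against 15.9% and 19.2% of tested genes. Succinate dehydrogenase, which belongs to both the cycle and the respiratory chain, gave 2 of the 5 higher genes. Its membrane anchor Sdhc had 201, 179 and 182 CPM in IP and 95.7, 94.7 and 87.3 CPM in Input, and it rose by 1.01 ± 0.16 on the log2 scale (SE, edgeR adjusted p = 0.0036). The other anchor, Sdhd, rose by 0.81 ± 0.18 (edgeR adjusted p = 0.0135), a call lost without IP replicate 2, IP replicate 3 or Input replicate 2 (edgeR adjusted p-values between 0.0506 and 0.0563). Sdhb and Sdha, the soluble subunits, had log2 fold changes of 0.85 ± 0.28 and 0.30 ± 0.16 and did not pass without the block (edgeR adjusted p = 0.0579 and 0.203). With the block Sdhb passed (0.84 ± 0.15, edgeR adjusted p = 0.00187) and Sdha did not (edgeR adjusted p = 0.0964). Sdha and Sdhb were named after their values were seen.

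Pyruvate enters mitochondria through a carrier of Mpc1 and Mpc2, of which Mpc2 rose by 0.81 ± 0.25 (SE, edgeR adjusted p = 0.0442) and Mpc1 had 0.71, without passing (edgeR adjusted p = 0.278). Mpc1 too was named after its value was seen. Mpc2 kept its call without IP replicate 1 or Input replicate 3 and lost it without any other single library, with edgeR adjusted p-values between 0.0930 and 0.142. Rpe, of the pentose phosphate pathway, rose by 0.65 ± 0.20 (edgeR adjusted p = 0.0414), but passed in none of the 6 fits without 1 library, with edgeR adjusted p-values between 0.0552 and 0.134.

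Among the lower genes, Gpd1, the cytosolic glycerol-3-phosphate dehydrogenase known from oligodendrocytes, had 2.25, 6.06 and 6.14 CPM in IP and 30.9, 36.3 and 53.6 CPM in Input. It fell by 3.06 on the log2 scale (SE 0.42, edgeR adjusted p = 0.00189) and passed in all 18 alternatives. The glucose transporter Slc2a1, abundant in endothelium and glia, had 21.8, 13.2 and 13.0 CPM in IP and 49.4, 36.0 and 27.5 CPM in Input. It fell by 1.23 (SE 0.31, edgeR adjusted p = 0.0197), and the call held without IP replicate 1 or Input replicate 3 and was lost without any other single library (edgeR adjusted p-values between 0.0523 and 0.0768). The neuronal glucose transporter Slc2a3 had a log2 fold change of -0.02 ± 0.34. Both the oligodendrocyte and the endothelial markers were lower in IP, by medians of -4.49 and -4.57, and their part in these results was not tested.

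Enzymes of the Pfkfb family set the pace of phosphofructokinase through a bisphosphate of fructose. Pfkfb2 fell by 0.75 (SE 0.20, edgeR adjusted p = 0.0257), with the call lost without IP replicate 2, IP replicate 3, Input replicate 1 or Input replicate 2 (edgeR adjusted p-values between 0.0510 and 0.105). Pfkfb3, the form best known from astrocytes, had a log2 fold change of -1.11 ± 0.44 that missed the threshold (edgeR adjusted p = 0.0993) and passed with the block (-1.14 ± 0.24, edgeR adjusted p = 0.00441). Glycogen phosphorylase of brain, Pygb, fell by 0.90 (SE 0.25, edgeR adjusted p = 0.0322), with the call kept without IP replicate 1 or Input replicate 3 and lost without any other single library (edgeR adjusted p-values between 0.0548 and 0.0897). The monocarboxylate transporters Slc16a1 and Slc16a7, carriers of lactate, had log2 fold changes of -0.49 ± 0.65 and -0.68 ± 0.35 and did not pass. Pdk4 was below the level set for naming and was chosen after its values were seen. Pdk4, a kinase that switches off pyruvate dehydrogenase, had 0.365, 0.395 and 0.184 CPM in IP and 9.44, 7.39 and 6.65 CPM in Input, a log2 fold change of -4.63 ± 0.52 (edgeR adjusted p = 0.000749).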

How the data were processed

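RNA of 6 libraries, 3 IP and 3 Input, was compared. The authors deposited 1 table of read counts per gene for each library, made with STAR 2.0.0e and HTSeq on mm10, per the submitters' processing notes. No source used here gives the annotation, counting mode or strand setting, so an overlapping or antisense gene may hold some of a gene's reads. Summary rows, which average 7.8% of records without a feature, 1.8% ambiguous and 40.8% at more than 1 place in IP, and 16.2%, 9.3% and 25.8% in Input, stayed out of library sizes and tests. Input too is labelled as ribosomal-bound RNA, and that Input is whole-tissue RNA is an assumption.

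From the counts, genes were filtered (filterByExpr), scaled (TMM) and tested by group with the quasi-likelihood test of edgeR 4.0.16 (R 4.3.3), two-sided, with Benjamini-Hochberg adjustment over 16496 genes and a threshold of 0.05. Per-kb levels divide CPM by the length of the principal GENCODE M21 transcript. Ratios within a library were compared by exact permutation (scipy 1.17.1). DESeq2 1.42.0, limma-voom (limma 3.58.1), other scalings and filters, the replicate block and left-out libraries were alternatives. Only the main edgeR fit was tested on simulated data.

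The enzymes and gene lists were chosen with earlier results of these data known. Library values are given for the 6 paired isoenzymes, called enzymes and the highest enzyme of each group. Of the other lists, up to 3 called genes per direction with a mean of at least 5 CPM are named, plus Eno1b, Slc2a1, Slc2a3, Slc16a1, Slc16a7 and Pfkfb3. Further genes with library values were chosen after these were seen. Some genes in the counts of called pathway genes are not reported here by name.

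Deviations from the group means correlated across genes between the IP and the Input library of a number, with r = 0.271 for replicate 1, 0.113 for 2 and 0.141 for 3. The numbers in the titles were taken to pair them, which is an assumption. The libraries of a number also share a lane, and correlations between unlike numbers were not computed. The fit without the block stayed the main one, as the labels state no paired test. No libraries of 1 group agreed within sampling noise. In CPM by library total, 3 reads were worth 0.0551 to 0.0681, and depth limits mainly Eno1 and Suclg2.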

Additional observations from a re-analysis of the deposited data

How the results depend on the processing

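The median log2 fold change of the 35 enzymes lay between 0.06 and 0.28 in all alternatives, and was 0.14 over the 22 enzymes sharing under 10% of their 50-base stretches, an alternative added after seeing the data. The count of enzymes called higher, 3 by the main edgeR fit, was 0 with library totals, 0 with upper-quartile factors, 0 with no filter, 1 with a minimum of 1 CPM in 3 libraries and 7 with the replicate block. Upper-quartile factors moved the median of all genes to -0.13, and omitting the filter moved it to -0.24. Leaving out libraries gave between 0 and 3 higher and between 1 and 2 lower enzymes, between 83 and 1640 higher and between 651 and 2598 lower genes of all tested (731 to 1640 and 1634 to 2598 without 1 library, and 972 higher without both libraries of replicate 3), and between 0 and 6 higher and between 2 and 8 lower genes of the other pathway lists. Over all genes 2624 were higher with the block. Of the other pathway genes, 3 were higher with library totals, 3 with upper-quartile factors, 3 with the 1 CPM minimum and 9 with the block, and 11 were lower with DESeq2. Apart from the calls given beside their results, the block changed no call among the 35 enzymes. The cause of these moves was not tested.

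Aldoc passed in all 18 alternatives, Suclg2 in 10, Mdh1 in 8, Tpi1 in 6 and Dlat in 5, each keeping its direction. The log2 fold change of Ldhb, -0.06, ranged between -0.23 and 0.10 without 1 library. It turned to 0.10 without IP replicate 1, 0.03 without Input replicate 2 and 0.05 without both libraries of replicate 1. Paired differences gave the same ratios, and exact sign-flip p-values with 3 pairs cannot go below 0.25. The ratio of Eno2 over Eno1 kept its sign, between 1.78 and 2.57 with libraries left out, as did Aldoa over Aldoc, between 2.12 and 2.44, and Ldhb over Ldha, between -0.80 and -0.17.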
